A study of Homo sapiens with 12 samples.

Results

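The mitochondrial ribosomal protein genes were taken as the protein-coding genes whose symbol is MRPL or MRPS followed by a number and, in some, a letter, with pseudogenes left out. The rule found 78 of the 61533 gene entries, 49 named MRPL and 29 named MRPS, on 21 chromosomes. Messenger RNA was sequenced from 4 lines made from HMLE, a human breast epithelial line that had been immortalised with telomerase and SV40 antigens. The lines carried a control construct (control), a CT83 construct (CT83), a HORMAD1 construct (HORMAD1) or both (HORMAD1_CT83, called the double line here), and all 4, the control included, had been selected with puromycin. HORMAD1 is a protein of meiotic chromosomes and CT83 a cancer/testis antigen, and the study asked what each does in these cells and whether they cooperate. Each line was represented by 3 libraries, 12 in all. Each of these 4 states was represented by 1 line only. The labels do not say whether the 3 libraries of a line came from separate cultures. P-values therefore reflect only how far these libraries differ, which can be a technical spread.

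The mitochondrial ribosome translates the 13 messenger RNAs of mitochondrial DNA, which encode core subunits of the respiratory chain and the ATP synthase. Its 2 rRNAs are transcribed in the organelle, whereas its proteins are encoded in the nucleus, made in the cytosol and imported, so the ribosome is assembled from the products of both genomes. Some of its proteins have homologues in the bacterial ribosome, and others were added during the evolution of mitochondria. MRPL genes encode proteins of the large subunit, which forms peptide bonds, and MRPS genes mostly proteins of the small subunit, which reads the message. Symbols are older than the structures: MRPS18A and MRPS30 are proteins of the large subunit and were counted there, and MRPS36 is now known as a subunit of the oxoglutarate dehydrogenase complex and was kept under the rule but in neither subunit.

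Total counts per library ran from 9898845 to 14159740. HORMAD1 and CT83 counts were found only in the lines labelled with them, and CT83 stood at 400 to 724 CPM in the CT83 line and 86.7 to 118 in the double line. All 5 basal and all 5 luminal markers of mammary epithelium were present. Their summed level was 5539 to 5936 CPM (library-scaled counts) in control, 5105 to 6336 in CT83, 4806 to 5624 in HORMAD1 and 5262 to 5917 in the double line for the basal markers, and 3959 to 4482, 3304 to 3596, 3457 to 4463 and 3071 to 3667 for the luminal ones. Summed fibroblast markers stayed between 6.27 and 64.8 CPM, with 5 of 6 of them over 1 CPM in some library. Leukocyte markers summed to 5.84 to 9.03 CPM (2 of 4 over 1 CPM), endothelial markers to 0.191 to 1.55 (0 of 4) and adipocyte markers to 0 to 0.605 (0 of 3), with ADIPOQ at 0 in every library.

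Of the 78 genes, 9 had no or almost no counts in any library. MRPL12, MRPL30, MRPL38, MRPL53, MRPS6, MRPS17 and MRPS24 had 0 counts over 12 libraries, MRPL46 had 1 and MRPS28 had 4. For a gene at 0 counts, the 139473509 counts of all libraries allow a level of up to 0.0215 CPM (3 counts, counting error only). These genes encode proteins from several regions of the ribosome: MRPL12 forms the flexible stalk that recruits translation factors and also binds the mitochondrial RNA polymerase, MRPL38 and MRPL46 belong to the central protuberance at the top of the large subunit, and MRPS6, MRPS17, MRPS24 and MRPS28 have homologues in the bacterial small subunit.

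All 9 shared exons with another gene annotated on the same strand. In GENCODE 29, such a gene covered 85.7% of the bases of the principal transcript of MRPS24 (the readthrough gene URGCP-MRPS24), 71.1% of MRPL46, 68.2% of MRPL12, 67.8% of MRPL38, 55.4% of MRPS28, 52.3% of MRPL53 (CCDC142), 31.9% of MRPS6, 31.6% of MRPS17 (NIPSNAP2) and 21.7% of MRPL30. Among the other 69 genes the largest share was 9.1% in MRPL9, followed by 1.8% in MRPL42 and 0.8% in MRPS16, and the principal transcripts of the remaining 66 shared no base on their strand. The 2 sets did not overlap in this measure. Over all annotated exonic bases of each gene they did: the same-strand share was 21.1% in MRPL33 and 10.5% in MRPL20, which had counts, against 19.5% in MRPL30, 11.3% in MRPL46 and 9.6% in MRPS6. The rule by which shared reads were assigned is not given in the sources used here, so a level of 0 for these 9 genes cannot be told apart from reads that were left unassigned, and none of them enters a comparison. On the opposite strand, another gene overlaps the span of 35 of the 69 genes, introns included. For MRPL1, MRPL14, MRPL40, MRPL48, MRPS18B and MRPS31 among them, exons of another gene cover 0.0% of the exonic bases. The use of strand is not known, so reads of both genes cannot be told apart where exons are shared. Exons of another gene on either strand cover over 30% of all exonic bases in MRPS18A (47.0%), MRPS18C (40.2%), MRPL9 (38.5%), MRPL43 (36.9%) and MRPL51 (31.3%). They cover 20% to 30% in MRPS25 (22.2%), MRPL4 (21.4%) and MRPL33 (21.1%). The share is 10% to 20% in MRPS12 (16.3%), MRPL20 (15.5%), MRPS16 (14.9%), MRPL2 (14.7%), MRPS2 (14.4%), MRPS14 (13.5%), MRPL34 (13.2%), MRPL44 (12.9%), MRPL49 (12.2%) and MRPS7 (10.8%).

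**Figure D1:**
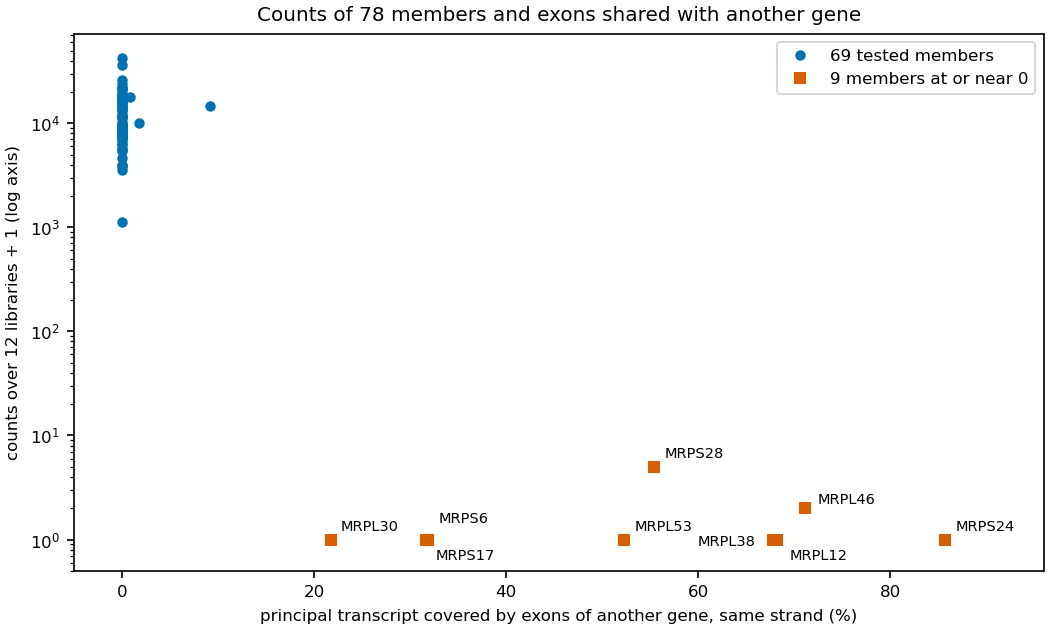
Each point is 1 of the 78 genes, placed by the percentage of its principal transcript covered by same-strand exons of another gene (horizontal) and its counts summed over 12 libraries plus 1 (vertical, log axis). The 9 genes at or near 0 counts (squares) lie at 21.7% or more, and the 69 others (circles) at 9.1% or less.

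The other 69 genes passed the low-count filter, and 67 of them lay above the median of all tested genes in CPM per kilobase of transcript. Levels are compared between genes on this scale. The median member stood at 52.4 CPM per kb, between 4.64 and 448 for the extremes, against 7.61 for all tested genes. The cytosolic ribosomal protein genes, measured in the same libraries, had a median of 931 CPM per kb. Large-subunit genes with a bacterial homologue had a median of 70.3 (28 genes), mitochondria-specific large-subunit genes 50.9 (18 genes), small-subunit genes with a bacterial homologue 48.9 (12 genes) and mitochondria-specific small-subunit genes 34.4 (10 genes). The quartiles of neighbouring groups overlapped.

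MRPL21, a large-subunit protein with a bacterial homologue, stood apart at 448 CPM per kb (range 342 to 506 over 12 libraries). It was followed by MRPS15 at 171 (138 to 202), MRPS34 at 154 (123 to 167), MRPL3 at 152 (125 to 171) and MRPL13 at 142 (108 to 175), and these 4 overlapped each other. MRPS15, MRPL3 and MRPL13 have bacterial homologues, and MRPS34 is specific to mitochondria. At the low end were MRPL42 at 4.64 (3.63 to 5.76), MRPL2 at 5.08 (3.37 to 6.91), MRPS33 at 10.7 (8.58 to 13.1), MRPS11 at 14.7 (10.3 to 16.7) and MRPL45 at 16.3 (12.6 to 19.4). MRPL2, which lies at the peptidyl transferase centre, and MRPL42 overlapped each other and were below every library of the other 67 genes. The annotated principal transcript of MRPL42 has 15582 bases, and its level without regard to length was 72.3 CPM. MRPL2 had only 8.06 CPM. With the union of all exons as the length, 3 of the 5 highest and 4 of the 5 lowest genes were shared with this order, and Spearman's rho between both orders was 0.781 over 69 genes. MRPL21 did not stand apart on that length and fell below MRPL14, which stood at 126. The principal transcript of MRPL21 has 683 bases, and all its exons together have 2825.

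**Figure D2:**
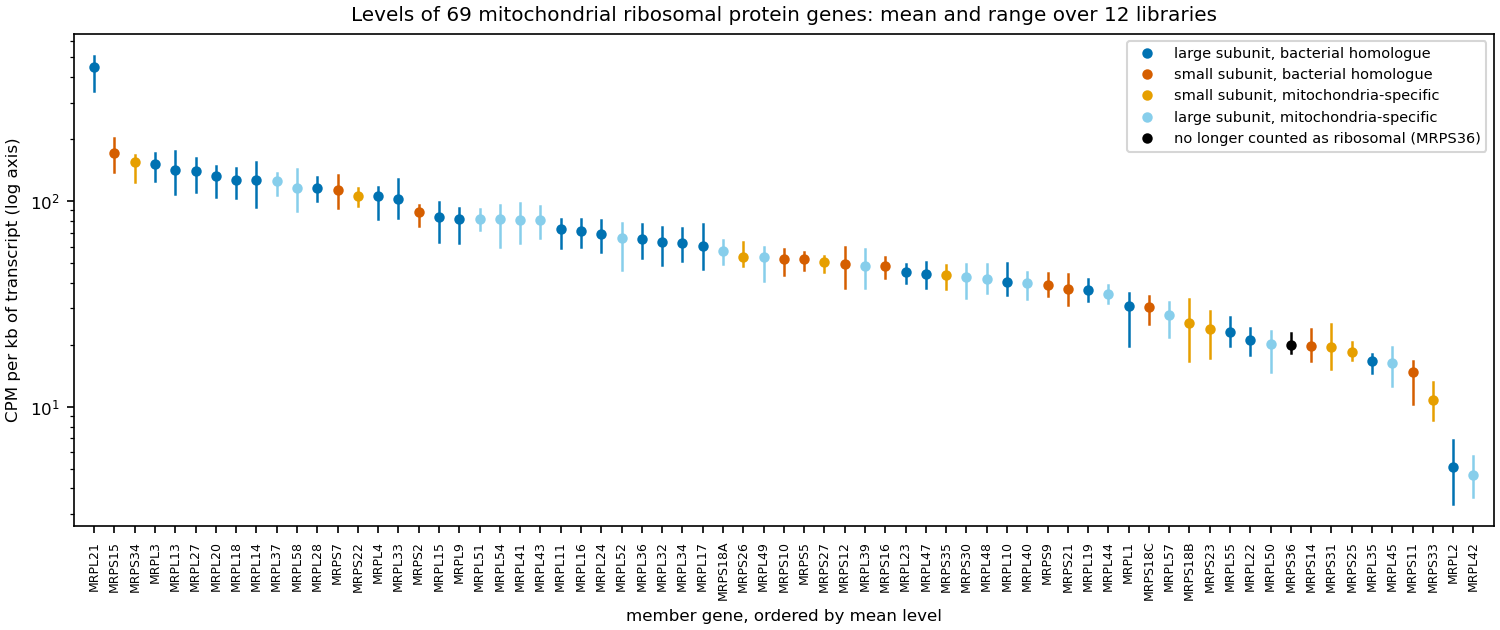
Mean CPM per kb of transcript (points, log axis) with the range over 12 libraries (lines) for the 69 tested genes, ordered by their mean and coloured by subunit and ancestry. With the length of the principal transcript, MRPL21 stands alone at 448, and MRPL42 and MRPL2 at 4.64 and 5.08 lie below all others.

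The human genome holds 3 genes related to the bacterial small-subunit protein of the MRPS18 type. In the groups used here, MRPS18C was counted with the bacterial homologues, and MRPS18A and MRPS18B as mitochondria-specific. MRPS18A, whose product sits in the large subunit, stood at 56.9 CPM per kb, MRPS18C at 30.6 and MRPS18B at 25.4. The MRPS18A range, 49.1 to 64.7, did not overlap those of the other two, which overlapped each other. MRPS30, the other large-subunit protein named as a small-subunit one, stood at 42.7. MRPL58, a peptidyl-tRNA hydrolase that rescues stalled ribosomes and is also built into the large subunit, stood at 116, and MRPS12, a protein of the decoding centre, at 49.4.

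Genes differed in how much they varied between libraries of 1 line. The SD of log2 CPM within lines had a median of 0.14 over the 69 genes and of 0.19 over all tested genes. It was largest in MRPS18B (0.31), MRPL2 (0.30) and MRPL1 (0.26), the last a protein of the stalk on the side where tRNAs leave. MRPS18B, for example, had 25.5, 36.9 and 51.3 CPM in the 3 HORMAD1 libraries. It was smallest in MRPS25 (0.061), MRPS36 (0.07) and MRPS22 (0.079). MRPS25, a mitochondria-specific small-subunit protein, stayed between 77.4 and 94.1 CPM in all 12 libraries.

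Promoters of these genes are known to carry sites for nuclear respiratory factors, which couple nuclear genes to the needs of the organelle. NRF1 is one such factor, GABPA, of the ETS family, another, and YY1 a further regulator that often sits near the start of genes for ribosomal proteins. Promoter sequence of RefSeq (GRCh38.p14), from 250 bases before to 50 after the start, matched 69 of the 78 genes by symbol. MRPL2, MRPL10, MRPL13, MRPL15, MRPL21, MRPL23, MRPL35, MRPS28 and MRPS36 were not matched. Both strands were searched for 5 strings of letters. The ETS string CCGGAAG was found in 29 of 69 (42.0%) against 14.2% of 15842 protein-coding genes with a promoter of the same length, the YY1 string AAGATGGCG in 13 (18.8%) against 2.74%, and the NRF1 string GCGCANGCG in 13 (18.8%) against 11.0%. The E-box CACGTG, bound by MYC, was found in 6 (8.7%) against 8.88%, and the TATA box TATAAA in 2 (2.9%) against 9.63%. Counting only bases before the start left 33.3% against 11.8% for ETS, 4.35% against 0.751% for YY1 and 18.8% against 9.72% for NRF1. A match describes the letters and not a bound site, the NRF1 and E-box strings can match both strands at 1 place, and these shares are given with no test.

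The stretches shown are those parts of 7 promoters that lie before the start and hold no annotated exon of any gene, written 5 prime to 3 prime on the strand of the gene with matches in capitals. They were chosen to show the NRF1 string (MRPL45), the NRF1 string with an E-box (MRPS18C), the YY1 string (MRPL52) and the ETS string once or more (MRPS34, MRPL3, MRPS18A and MRPL58), among genes whose levels are described here.
MRPL45, chr17:38296918-38297022, plus strand: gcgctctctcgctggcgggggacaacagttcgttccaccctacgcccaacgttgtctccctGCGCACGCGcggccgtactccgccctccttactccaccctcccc
MRPS18C, chr4:83455857-83455931, plus strand: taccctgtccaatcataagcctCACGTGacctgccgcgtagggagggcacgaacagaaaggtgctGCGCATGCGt
MRPL52, chr14:22829821-22829878, plus strand: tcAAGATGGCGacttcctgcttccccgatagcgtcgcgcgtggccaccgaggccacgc
MRPS34, chr16:1773156-1773206, minus strand: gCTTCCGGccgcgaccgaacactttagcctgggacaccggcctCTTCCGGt
MRPL3, chr3:131502984-131503221, minus strand: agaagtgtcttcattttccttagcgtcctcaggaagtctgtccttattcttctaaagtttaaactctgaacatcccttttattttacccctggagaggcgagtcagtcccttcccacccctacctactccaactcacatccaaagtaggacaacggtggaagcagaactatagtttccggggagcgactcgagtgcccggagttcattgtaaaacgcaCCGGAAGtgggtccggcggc
MRPS18A, chr6:43687792-43688041, minus strand: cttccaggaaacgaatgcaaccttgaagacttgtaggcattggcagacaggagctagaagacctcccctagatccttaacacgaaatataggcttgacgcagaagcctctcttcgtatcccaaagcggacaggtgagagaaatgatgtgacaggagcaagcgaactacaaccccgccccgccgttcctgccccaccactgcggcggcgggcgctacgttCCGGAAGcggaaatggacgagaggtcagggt
MRPL58, chr17:75012420-75012669, plus strand: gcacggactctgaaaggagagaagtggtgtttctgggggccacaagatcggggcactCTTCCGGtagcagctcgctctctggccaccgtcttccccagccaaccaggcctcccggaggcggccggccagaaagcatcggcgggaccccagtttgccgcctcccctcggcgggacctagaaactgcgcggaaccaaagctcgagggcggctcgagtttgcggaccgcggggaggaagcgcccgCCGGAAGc
In MRPS34, MRPL3 and MRPS18A an ETS match lay within 40 bases of the start, and in MRPL58 the last match lay 8 bases before it. The NRF1 match of MRPL45 began 189 bases before the start. The levels of the genes shown spread from 16.3 CPM per kb in MRPL45 to 154 in MRPS34.

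Across libraries, the 69 genes moved together, and they did so within lines as well as between them. Their share of all counts lay between 0.531% and 0.685%. The mean log2 deviation of the 69 genes from their 12-library mean was 0.04, -0.10 and 0.05 in the control libraries 1 to 3, 0.06, 0.01 and -0.17 in CT83, -0.27, 0.03 and 0.08 in HORMAD1, and 0.19, 0.08 and -0.01 in the double line. The control, CT83 and HORMAD1 lines each had 1 library well under the other two, and library 3 of the double line lay within the range of the other lines. HORMAD1 library 1 was the lowest of its line for 66 of the 69 genes, CT83 library 3 for 60, double-line library 3 for 57 and control library 2 for 54. Over all tested genes, those 4 libraries were the lowest of their line for 35.1% to 42.1%. The pooled SD of the mean within lines was 0.128. In such bulk libraries, less RNA per cell and fewer cells with the RNA cannot be told apart.

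The same libraries differed in a property of all genes. For each library, the slope of the deviation of all tested genes on the log2 of transcript length was taken, which is positive where longer transcripts are relatively high. It was largest in HORMAD1 library 1 (0.0607), CT83 library 3 (0.057) and control library 2 (0.0306), and lowest in double-line library 1 (-0.0498). Within each of the 4 lines, the order of the 3 libraries by this slope was the reverse of their order by the mean of the 69 genes. The 69 genes have short transcripts, with a median of 1455 bases against 2610 for all tested genes, and 58 of them lie below that median. Among the 69 genes themselves, the correlation of deviation with log2 length ran from -0.2 to 0.16 over the 12 libraries, a description over genes that share each library. The part of the slope in the results that follow was not tested. Values without HORMAD1 library 1, CT83 library 3 and control library 2 stand beside the medians of the 69 genes and the non-overlap counts. They also stand beside many, though not all, of the single genes and lists given for the double line. Double-line library 1, with the lowest slope, was kept in these fits.

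**Figure D3:**
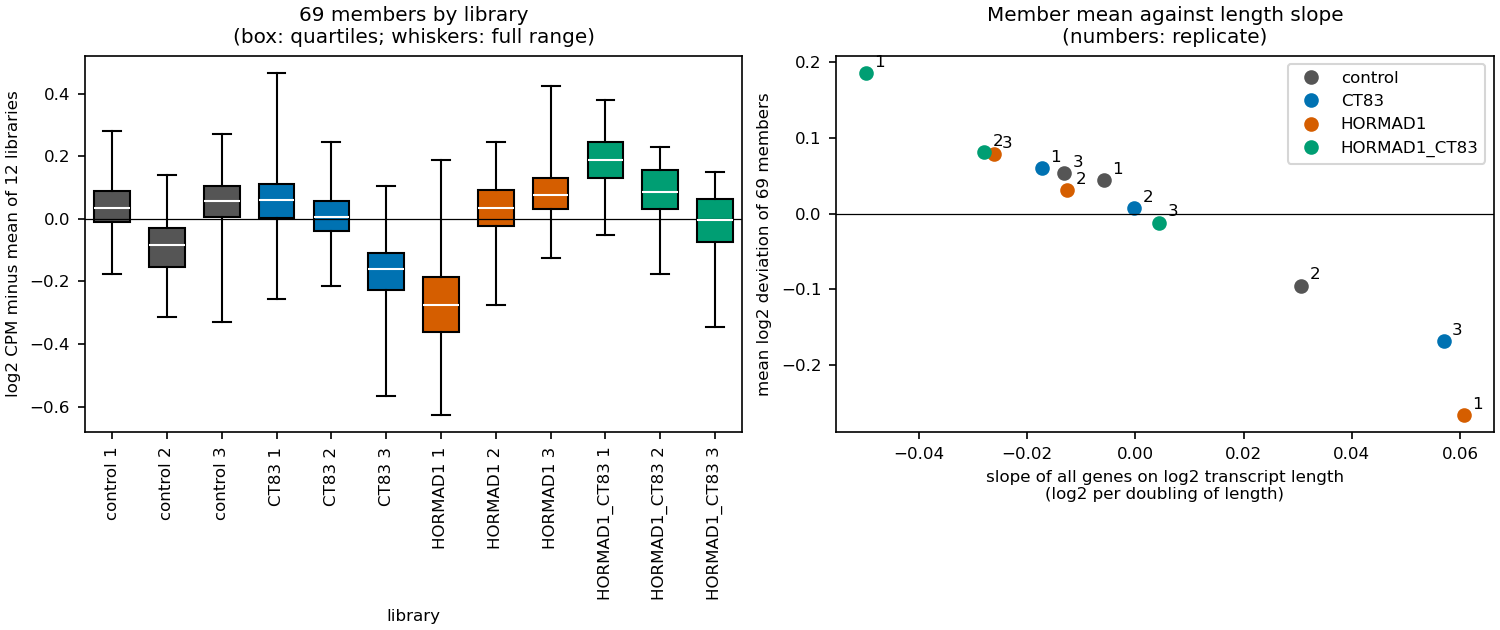
Left, log2 CPM of the 69 genes minus their 12-library mean in each library (boxes are quartiles with the median, whiskers the full range). Right, the mean of these deviations against the slope of all genes on log2 transcript length, 1 point per library with its replicate number; libraries with a slope over 0.03 (control 2, CT83 3 and HORMAD1 1) have the lowest means.

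Neither single construct gave a called change in any of the 69 genes. Differences are given as log2 fold changes from edgeR's quasi-likelihood test fitted to all 15616 tested genes in all 12 libraries, with p-values adjusted over all genes (Benjamini-Hochberg) and called under 0.05. In CT83 against control, 0 of 69 genes were called (0.0064% of all genes were), and 0 had an unadjusted p under 0.05 (2.74% of all genes). The median log2 fold change was -0.03 (SE of single genes 0.11, median), with 27 of 69 above 0, against 51.6% of all genes. In HORMAD1 against control, 0 were called (0.0064% of all genes) and 0 had an unadjusted p under 0.05 (1.82%), with a median of -0.04 and 19 of 69 above 0 against 52.0%. Without the 3 libraries with the largest positive slopes, these medians were -0.01 and 0.02.

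In CT83, the 3 smallest p-values belonged to MRPL45, MRPS35 and MRPL15. MRPL45 lies at the exit of the nascent chain and ties the ribosome to the inner membrane. It had 25.3, 30.3 and 33.1 CPM in control and 23.0, 29.7 and 21.5 in CT83. The ranges overlapped, with a log2 fold change of -0.25 (SE 0.14, edgeR adjusted p = 0.984). MRPL15, a large-subunit protein, had 94.6, 94.6 and 106 CPM in control and 89.5, 84.0 and 81.8 in CT83, which did not overlap (-0.21, SE 0.13, edgeR adjusted p = 0.984). MRPS35, a mitochondria-specific small-subunit protein, had 84.8, 77.6 and 91.8 against 82.7, 70.4 and 71.4, which overlapped (-0.18, SE 0.11). With single libraries left out, MRPL45 ranged from -0.407 (without CT83 library 2) to -0.16 (without CT83 library 3), and MRPS35 was -0.118 without control library 3. Besides MRPL15, MRPL1, MRPL23, MRPL48 and MRPL52 were lower in every CT83 library than in every control library, 5 of 69 (5.73% of all genes were). In HORMAD1, this held for 1 gene, MRPS36 (3.32% of all genes), at a log2 fold change of -0.06 (SE 0.10, edgeR adjusted p = 1.0). The smallest p-values in HORMAD1 were those of MRPL54, MRPL40 and MRPL27, at log2 fold changes of -0.19, -0.17 and -0.14 with ranges that overlapped control in each. Without HORMAD1 library 1 alone they were -0.059, -0.093 and -0.045.

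In the double line, most of the 69 genes had values above those of the other lines, by small amounts, and 0 were called. Against control, 57 of 69 log2 fold changes were above 0 (49.7% of all genes), with a median of 0.08 and extremes of -0.10 and 0.27. Called genes were 0 of 69 (0.0256% of all genes), genes higher at an unadjusted p under 0.05 were 3 (2.72%), and genes with all 3 double-line libraries above all 3 control libraries were 11, or 15.9% (7.61% of all genes). Against CT83, 65 were above 0 (49.8% of all genes) with a median of 0.11. Called were 0 (0.0064%), higher at an unadjusted p under 0.05 were 2 (3.19%), and 14 did not overlap (8.86%). Against HORMAD1, 65 were above 0 (48.1%) with a median of 0.13. Called were 0 (0.0448%), higher at an unadjusted p under 0.05 were 8, or 11.6% (3.45%), and 11 did not overlap (6.29%). Without control library 2, CT83 library 3 and HORMAD1 library 1, the genes without overlap were again 11, 14 and 11 (15.9%, 20.3% and 15.9%), now of 3 libraries against 2, where 10.5%, 14.4% and 13.7% of all genes did not overlap. The gap between the 69 genes and all genes was smaller than with all libraries in each, and smallest against HORMAD1. These 3 comparisons share the double-line libraries. With all 12 libraries, none had one of the 69 genes lower at an unadjusted p under 0.05 (2.84%, 4.86% and 4.14% of all genes were). Without the 3 libraries, 6, 8 and 5 were higher at that p and 0, 1 and 1 lower. In either direction, 1135, 2198 and 2052 of the 15667 genes tested there had such a p.

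The interaction asks whether the double line departs from the sum of both single changes on the log2 scale. CT83 itself stood at 400 to 724 CPM in the CT83 line and 86.7 to 118 in the double line. The sum therefore does not stand for like CT83 levels, and the part of this was not tested. The interaction was above 0 in 64 of 69 genes (48.5% of all genes), with a median of 0.15 (SE of single genes 0.15, median). Called genes were 0 (0.0% of all genes), and 4 were above 0 at an unadjusted p under 0.05 (1.78%). Without control library 2, CT83 library 3 and HORMAD1 library 1, the median was 0.04 in the double line against control, 0.06 against CT83, 0.02 against HORMAD1 and 0.04 for the interaction, with 51, 52, 40 and 46 of 69 above 0. Leaving out HORMAD1 library 1 alone gave medians of 0.015 against HORMAD1 and 0.048 for the interaction. Without CT83 library 3 alone, the median against CT83 was 0.057, and without double-line library 1 that against control was 0.028. With an offset for the length and GC content of each transcript, the 4 medians were 0.04, 0.07, 0.09 and 0.09. Above 0 were 43, 47, 49 and 52 of 69 genes (7480, 7193, 7311 and 7196 of all 15616). At an unadjusted p under 0.05, 4, 3, 6 and 3 were higher and 1, 2, 1 and 0 lower. Of all genes, 889, 1199, 1223 and 731 had such a p in either direction.

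**Figure D4:**
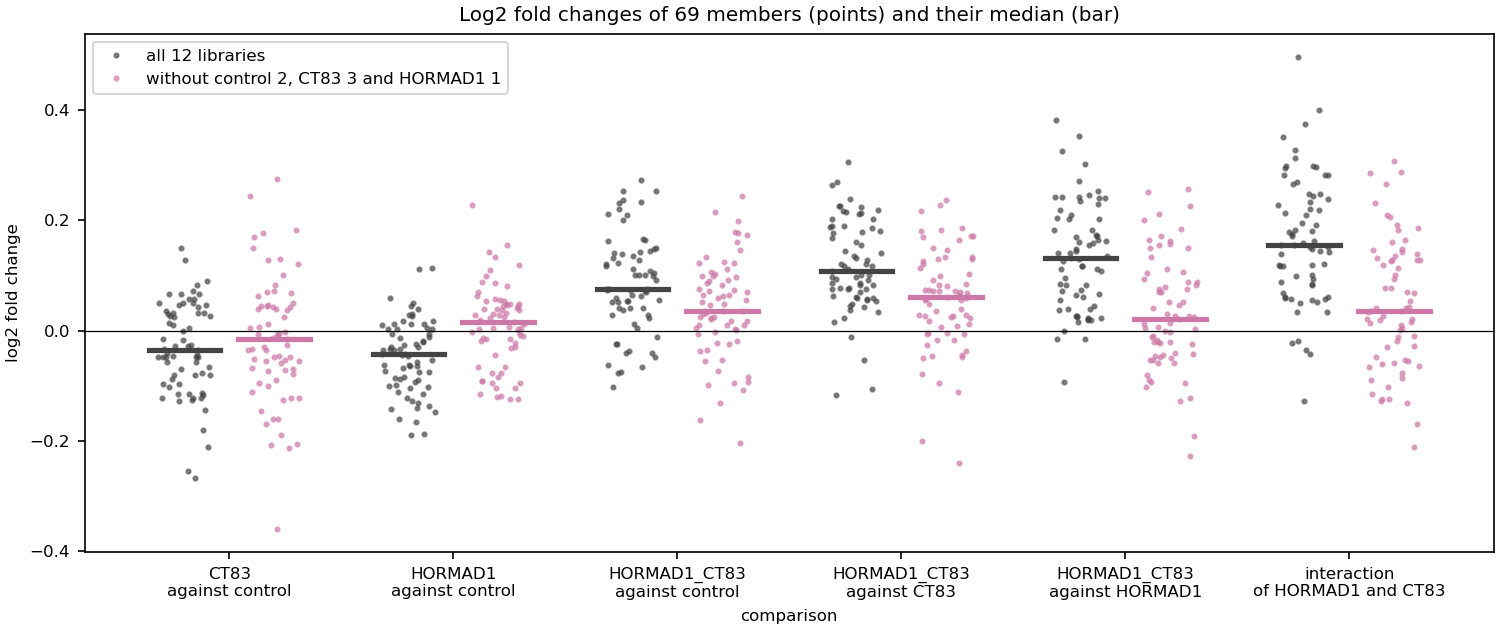
Log2 fold changes of the 69 genes (points, spread sideways for visibility) with their median (bar) in each of 6 comparisons, fitted with all 12 libraries or without control 2, CT83 3 and HORMAD1 1. With all libraries, medians of the 4 comparisons that involve the double line are 0.08 to 0.15, and without the 3 libraries 0.02 to 0.06.

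MRPS7 had the smallest p of the 69 genes in the double line against HORMAD1. The gene lies on chromosome 17 (GRCh38 75261674 to 75266373, plus strand), and its product belongs to the head of the small subunit and has a bacterial homologue. It had 161, 131 and 165 CPM in control, 164, 157 and 152 in CT83, 130.0, 145 and 155 in HORMAD1 and 189, 181 and 168 in the double line. The mean of the double line was 179 ± 10.6 CPM (SD, n = 3), and each of its libraries lay above all 9 others. The log2 fold change was 0.32 against HORMAD1 (SE 0.10, edgeR adjusted p = 0.32), 0.19 against CT83 and 0.23 against control, the last moving to 0.136 without control library 2 alone. Without the 3 libraries with the largest positive slopes, the difference from HORMAD1 was 0.26. It passed the threshold (SE 0.07, edgeR adjusted p = 0.0437) in a fit that kept all 3 double-line libraries and called 2.16% of all genes. No other member was called under any of the alternatives run.

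MRPS23, a mitochondria-specific protein of the small subunit on chromosome 17 (57834781 to 57850056, minus strand), had 135, 118 and 142 CPM in control, 146, 140.0 and 118 in CT83, 96.4, 126 and 132 in HORMAD1 and 164, 153 and 143 in the double line. The double line was above every control and every HORMAD1 library and overlapped CT83, and HORMAD1 library 1 was far below the rest. The log2 fold change against HORMAD1 was 0.38 (SE 0.12, edgeR adjusted p = 0.365), and 0.25 without the 3 libraries (edgeR adjusted p = 0.0575). Leaving out HORMAD1 library 1 alone gave 0.246. MRPL54, a mitochondria-specific large-subunit protein on chromosome 19 (3762664 to 3768575, plus strand), had 51.6, 48.3 and 54.1 CPM in control, 49.0, 52.4 and 47.5 in CT83, 37.2, 45.7 and 52.4 in HORMAD1 and 60.1, 56.4 and 56.0 in the double line. Its double-line libraries were above all 9 others, and HORMAD1 library 1 was again the lowest of the 12. The log2 fold change was 0.35 against HORMAD1 (SE 0.11, edgeR adjusted p = 0.369) and 0.40 for the interaction (SE 0.16, edgeR adjusted p = 0.841). They moved to 0.23 and 0.29 without the 3 libraries, and to 0.222 and 0.265 without HORMAD1 library 1 alone.

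MRPL10 forms the base to which the stalk protein MRPL12, at 0 counts here, attaches. It had the smallest p of the 69 genes against control and against CT83. Levels were 68.7, 60.0 and 67.2 CPM in control, 72.7, 67.4 and 62.2 in CT83, 60.3, 68.7 and 71.3 in HORMAD1 and 86.3, 77.3 and 73.0 in the double line. The 3 double-line libraries were the highest of the 12, the last by a margin smaller than the spread within any line. The log2 fold change was 0.27 against control (SE 0.10, edgeR adjusted p = 0.797), 0.23 against CT83 (edgeR adjusted p = 0.585) and 0.24 against HORMAD1 (edgeR adjusted p = 0.582). It was 0.22 against control without the 3 libraries. MRPL16, a large-subunit protein with a bacterial homologue, followed against control, with 80.9, 71.4 and 87.8 CPM in control and 96.5, 93.3 and 93.1 in the double line (0.24, SE 0.10, edgeR adjusted p = 0.864). The MRPL16 value was 0.163 without control library 2 alone.

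MRPL45 led the interaction. Beside the control and CT83 values given above, it had 23.1, 28.4 and 26.2 CPM in HORMAD1 and 31.7, 30.2 and 30.0 in the double line. Both single lines had means below control, 24.7 ± 4.39 and 25.9 ± 2.67 against 29.5 ± 3.98 CPM (SD, n = 3), and the double line stood at 30.6 ± 0.927. The interaction was 0.50 (SE 0.19, edgeR adjusted p = 0.841), and 0.31 without the 3 libraries. Against CT83, where its p was among the 3 smallest of the 69 genes, MRPL45 stood at 0.31 (SE 0.14, edgeR adjusted p = 0.585), at 0.456 without CT83 library 2 and at 0.174 with the offset for length and GC content. MRPL27, a large-subunit protein with a bacterial homologue, had 103, 89.9 and 107 CPM in control, 106, 96.1 and 92.4 in CT83, 79.5, 96.9 and 96.5 in HORMAD1 and 116, 113 and 107 in the double line. Its double-line libraries lay above all HORMAD1 and CT83 libraries and overlapped control, with an interaction of 0.33 (SE 0.14, edgeR adjusted p = 0.841) and a log2 fold change against HORMAD1 of 0.30 (SE 0.10, edgeR adjusted p = 0.398). These were 0.27 and 0.21 without the 3 libraries. The other genes higher at an unadjusted p under 0.05 were MRPS14 and MRPL40 against HORMAD1 (0.25 and 0.22), MRPL16 in the same comparison (0.21) and MRPL40 in the interaction (0.30). The values against HORMAD1 were 0.18 for MRPS14, 0.15 for MRPL40 and 0.11 for MRPL16 without the 3 libraries.

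**Figure D5:**
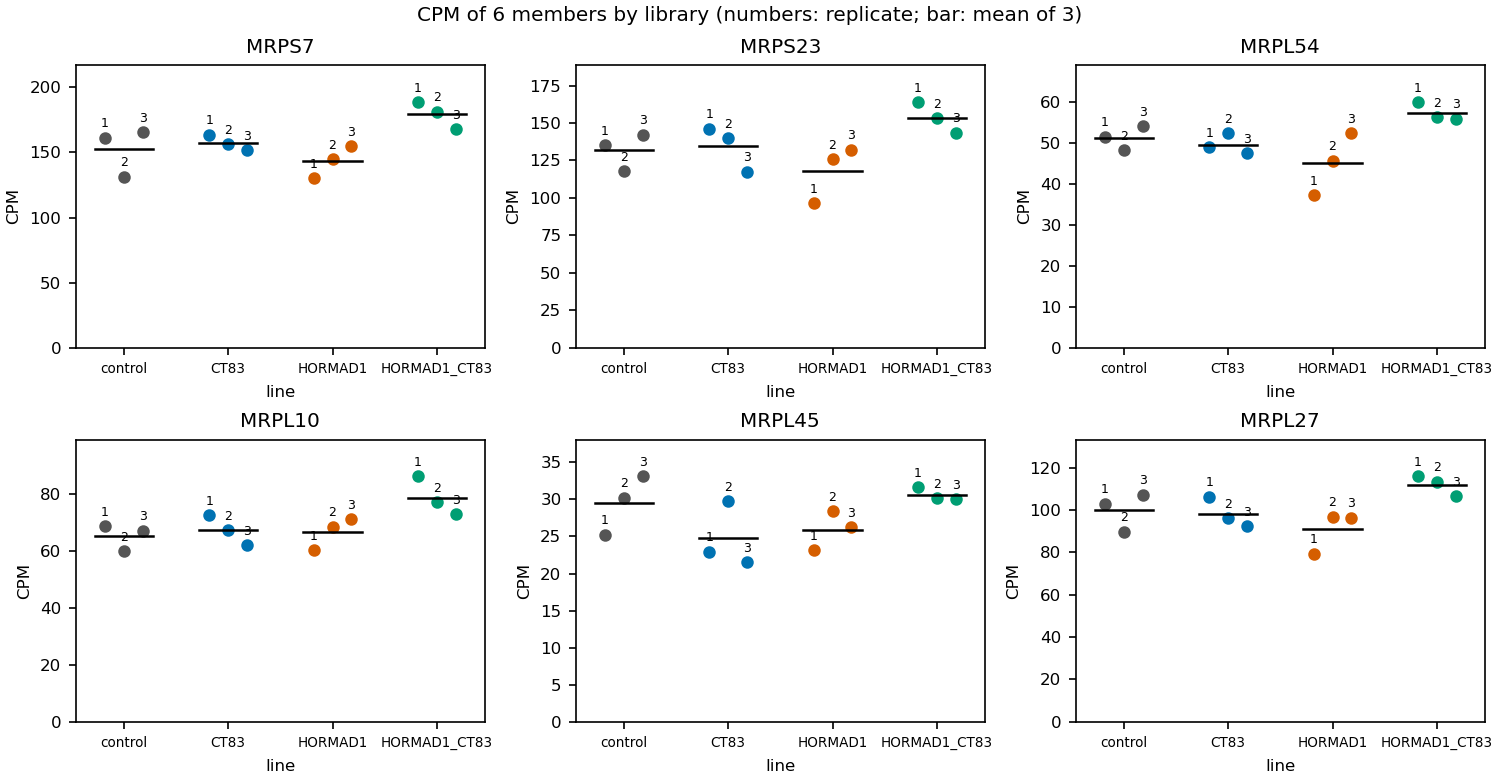
CPM of MRPS7, MRPS23, MRPL54, MRPL10, MRPL45 and MRPL27 in each library (points, with replicate numbers) and the mean of each line (bars). For MRPS7, MRPL54 and MRPL10 the double-line points lie above all 9 others, and HORMAD1 library 1 is the lowest HORMAD1 point in all 6 genes.

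Besides MRPL10, MRPS7 and MRPL16, genes without overlap between the double line and control were MRPL17, MRPL24, MRPL44, MRPS14, MRPS23, MRPS25, MRPL54 and MRPS36. MRPL24, a large-subunit protein at the mouth of the exit tunnel, had 57.1, 54.0 and 59.2 CPM in control, 66.3, 71.5 and 51.2 in CT83, 49.96, 59.4 and 60.4 in HORMAD1 and 70.7, 65.4 and 64.0 in the double line (0.23 against control, SE 0.12). The double line lay above control and HORMAD1 and inside the range of CT83. MRPS14, a small-subunit protein with a bacterial homologue, had 41.6, 39.2 and 41.2 CPM in control, 41.1, 44.3 and 35.1 in CT83, 35.5, 41.1 and 41.1 in HORMAD1 and 50.2, 43.8 and 46.0 in the double line (0.20 against control, SE 0.10, and 0.25 against HORMAD1, SE 0.10). MRPL17 stood at 0.25 (SE 0.13) and MRPL44 at 0.13 (SE 0.10) against control. Against CT83, MRPL18, MRPL49, MRPL11, MRPS34, MRPL1, MRPL51 and MRPL20 had no overlap as well, at 0.10 to 0.23. Some margins were thin: the lowest double-line and highest CT83 values were 123.52 and 123.45 CPM in MRPL18 and 101.68 and 101.39 in MRPL51. In MRPL49 they were 112.69 and 105.93 CPM. At the other end, MRPL55 had the lowest log2 fold change against control, -0.10 (SE 0.13), followed by MRPS18B and MRPS26 at -0.08 each (SE 0.22 and 0.09) and MRPL48 at -0.07 (SE 0.11). MRPS5 was lowest against CT83, at -0.12 (SE 0.09), and MRPL48 against HORMAD1, at -0.09 (SE 0.11).

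The shift of the double line was spread over both subunits. The 46 large-subunit genes had a median log2 fold change of 0.08 against control, 0.12 against CT83 and 0.13 against HORMAD1, with 38, 44 and 43 above 0. The 22 small-subunit genes had medians of 0.07, 0.09 and 0.10, with 18, 20 and 21 above 0. Without the 3 libraries the large-subunit medians were 0.035, 0.063 and 0.022 (36, 36 and 27 above 0) and the small-subunit medians 0.041, 0.061 and 0.008 (14, 15 and 12 above 0). Genes with and without bacterial homologues, MRPS18A and MRPS18B counted among the latter, had medians against control of 0.07 and 0.10 for the large subunit. For the small subunit these were 0.06 and 0.07. Without the 3 libraries these were 0.03 and 0.054 for the large and 0.041 and 0.039 for the small subunit. The 6 genes at the exit of the nascent chain, where new respiratory subunits leave towards the membrane, had a median of 0.08 against control, and the 5 measured genes of the central protuberance 0.05. Their medians were 0.078 and 0.031 without the 3 libraries. The difference between these groups was not tested, and 0 genes of any group were called. None of the groups kept away from the pattern over libraries: in each of the 4 groups by subunit and ancestry HORMAD1 library 1 had the lowest mean (-0.23 to -0.31) and double-line library 1 the highest (0.17 to 0.19).

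The genes with special roles gave small values. MRPL58 had 106, 92.4 and 113 CPM in control and 127, 117 and 97.9 in the double line, which overlapped (0.14, SE 0.14). MRPS12 had 71.8, 49.0 and 62.7 against 68.6, 65.9 and 54.5, also overlapping (0.04, SE 0.15). In the MRPS18 family the log2 fold changes in the double line against control were 0.12 (SE 0.10) for MRPS18A, -0.08 (SE 0.22) for MRPS18B and 0.06 (SE 0.10) for MRPS18C, and MRPS30 had 0.08 (SE 0.12). MRPS36, which is no ribosomal protein in current usage, had 25.6, 24.6 and 25.3 CPM in control and 29.5, 26.9 and 26.9 in the double line, without overlap (0.14, SE 0.10, edgeR adjusted p = 0.907).

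Many of these genes start close to a neighbour on the other strand. A protein-coding gene began within 1000 bases on the opposite strand and read away from it in 19 of the 78 (24.4%), against 8.82% of 19854 protein-coding genes, a description with no test. MRPL21 and IGHMBP2 start 7 bases apart, MRPL27 and EME1 6, and MRPL46 and MRPS11, both mitoribosomal, 34. In 13 pairs both partners passed the filter. Among these, the member had a log2 fold change above 0 in the double line against HORMAD1 in 13 of 13, with a median of 0.18, and the partner in 8 of 13, with a median of 0.01. Without the 3 libraries, 11 of 13 members were above 0 with a median of 0.076, and 7 of 13 partners with a median of 0.008. For MRPL27 and EME1 the values were 0.30 and 0.01, for MRPL57 and SKA3 0.23 and -0.06, and for MRPL21 and IGHMBP2 0.15 and -0.18. The partners were longer, with a median transcript of 2499 bases against 1024, and the part of length in this difference was not tested.

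The ribosome's other components were measured in the same fit. All 5 proteins of the mitochondrial ribosome with other names were measured, and 5 of 5 were above 0 in the double line against control (median 0.04, 0 called), among them DAP3 at 0.06 and CHCHD1 at 0.11. Only 2 of 5 were above 0 when the 3 libraries were left out. The cytosolic ribosomal protein genes, 74 of 79 tested, gave medians of 0.10 against control, 0.15 against CT83 and 0.12 against HORMAD1, with 67, 70 and 71 above 0 and 0 called. These medians were 0.054, 0.058 and 0.052 without the 3 libraries, with 66, 62 and 62 above 0. Their mean deviation was lowest in CT83 library 3 (-0.22) and HORMAD1 library 1 (-0.20) and highest in double-line library 1 (0.18), close to the values of the mitochondrial genes. The 2 mitochondrial rRNAs, MT-RNR1 and MT-RNR2, stood at 0.05 each in the double line against control. They moved to -0.076 and -0.06 without double-line library 1 alone, and to -0.025 and 0.005 without the 3 libraries. In the same comparison, the 13 mitochondrially encoded proteins had 0 of 13 above 0 and a median of -0.15, with 0 called. Of these, MT-ND5 and MT-ND6 had the smallest p-values (-0.27, SE 0.27, and -0.31, SE 0.32). The lower values of the mitochondrially encoded proteins rested on 1 library: their mean deviation was -0.027, 0.287 and -0.631 in the double-line libraries and 0.243, 0.073 and -0.117 in control. Without double-line library 3 the median was 0.051, with 10 of 13 above 0, and without double-line library 2 it was -0.382.

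In the machinery that serves the ribosome, 0 genes were called in any comparison. In the double line against control, 9 of 11 translation factors were above 0 (median 0.07). The recycling factors MRRF at 0.16 and GFM2 at 0.15 had the smallest p-values there, and TSFM and MTRF1, both at 0.22, the highest values. With single libraries left out, TSFM ran from -0.199 (without control library 3) to 0.755 (without control library 2). MTRF1 ran from 0.171 to 0.242. Of 21 genes of assembly and rRNA modification, 12 were above 0 (median 0.02). Among these 21, the GTPase MTG2 at -0.22 and the helicase DHX30 at -0.16 had the smallest p-values. Without the 3 libraries, 7 of 10 translation factors were above 0 (median 0.057, TSFM not tested). There, 9 of 21 assembly and modification genes were above 0 (median -0.02). Of 14 aminoacyl-tRNA synthetases, 7 were above 0, with LARS2 at -0.255 (edgeR adjusted p = 0.829) and WARS2 at 0.27 (edgeR adjusted p = 0.87). TEFM and LRPPRC, of mitochondrial transcription and RNA stability, stood at 0.22 and -0.11. Among 8 regulators only 2 were above 0, and the median was -0.19 (-0.13 without the 3 libraries). MYC had 409, 407 and 380 CPM in control and 337, 352 and 329 in the double line, without overlap (-0.23, SE 0.07, edgeR adjusted p = 0.712). NRF1, a transcription factor of nuclear genes for mitochondrial proteins, had 20.5, 19.8 and 22.8 CPM in control and 16.5, 17.4 and 14.8 in the double line, also without overlap (-0.37, SE 0.11, edgeR adjusted p = 0.764).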

How the data were processed

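Per the submitters' processing notes, the authors used Trimmomatic 0.39, STAR 2.7.5c, Picard and SAMtools, and they list hg38 and hg19 without a role. How counts were made (tool, annotation, strand) is not given in the sources used here. Per gene, expected counts (estimates, some with a fraction) were deposited, 61533 entries a library. Rounding to whole numbers changed 6.75% of values. Of the 78 genes, 55 had a value that was not whole in some library, and 75 pseudogene entries named for them held 0.069% to 0.134% of the counts of both together. Symbols came from the reference gene table, and coordinates, transcripts (APPRIS principal) and exon overlap from GENCODE 29 (GRCh38). The files held 0 ERCC spike-in entries, so levels are relative to the other genes of a library.

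In R 4.3.3 with edgeR 4.0.16, genes were filtered with filterByExpr at a minimum count of 10 (15616 genes) and scaled by TMM. Robust quasi-likelihood models were fitted to 12 libraries with 1 mean per line (8 residual degrees of freedom), and p-values were adjusted by Benjamini-Hochberg over all genes. CPM are TMM-scaled, and log2 CPM had a prior count of 2. Alternatives included DESeq2 1.42.0 size factors and Wald test, limma-voom (limma 3.58.1), library size alone, other filters, a replicate block, a fit of the compared groups alone, an offset for length and GC, and each library left out. The fit was tested on simulated data. No 2 libraries of a line agreed within sampling noise (chi-square per degree of freedom 2.49 to 26.1).

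The genes and lists were chosen with earlier results of these data known. Named were, per comparison, the 3 genes with the smallest p and every called gene (0), the 5 highest and 5 lowest per kilobase, the 3 most and 3 least variable within lines, 9 genes for their role, and the 2 genes of each related list with the smallest p in the double line against control. Genes of pairs with a divergent neighbour, those without overlap, those with the lowest values in the double line, those shown by promoter and the remaining genes under an unadjusted p of 0.05 were named after their values were seen.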

Additional observations from a re-analysis of the deposited data

How the results depend on the processing

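For the 3 genes with the smallest p in each comparison (18 results), the direction of the log2 fold change was kept in all 411 refits, and the side of the threshold in 410. The exception was MRPS7 in the double line against HORMAD1 without control library 2, CT83 library 3 and HORMAD1 library 1, where 1 of the 69 genes was called against 0 with all libraries. The number of the 69 genes called was 0 in the other 142 of 143 fits. The 18 results were picked for a small p in these same libraries, and some refits left out a library of a line outside the comparison. Their kept direction is therefore no independent check. Under all alternatives, the median log2 fold change moved by less than 0.128, the pooled SD within lines of the mean of the 69 genes in single libraries. That SD is not the spread of a median fold change, and it is about as large as the medians themselves. Against HORMAD1, the median of 0.131 fell to 0.015 without HORMAD1 library 1. Against control, the median changed sign when single libraries were left out, from -0.081 to 0.036 in CT83 and from -0.11 to 0.067 in HORMAD1. Ranges when single libraries were left out were 0.028 to 0.128 for the double line against control, 0.057 to 0.166 against CT83, 0.015 to 0.22 against HORMAD1 and 0.048 to 0.24 for the interaction.

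The fits with libraries left out were read for the related lists, subunits and divergent neighbours, and the counts without overlap were retaken, after the data were seen. Counts of all called genes were small and moved. Without the 3 libraries they were 119, 6, 13, 73, 339 and 22 in the order CT83, HORMAD1 and the double line against control, the double line against CT83 and HORMAD1, and the interaction, against 1, 1, 4, 1, 7 and 0 with all libraries. Without the filter they were 0 in CT83 against control, 12 in the double line against control, 0 against CT83, 99 against HORMAD1 and 2 in the interaction. DESeq2's test called 2 in HORMAD1 against control, 3 against CT83, 62 against HORMAD1 and 3 in the interaction. limma-voom called 2, 2 and 3 in the double line against control, CT83 and HORMAD1. The fit of only the groups compared called 0, 0 and 1 in CT83 and HORMAD1 against control and the double line against HORMAD1. With the length and GC offset the double line gave 2 against control and 11 against HORMAD1. Leaving out single libraries gave 0 to 1, 1 to 2, 1 to 5, 1 to 2, 0 to 39 and 0 to 0. The cause of these moves was not tested.

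The replicate number as a block gave 2, 2 and 1 called genes in the double line against control, CT83 and HORMAD1, and 2 and 2 in the first pair with the length and GC offset as well. Deviations of same-numbered libraries showed no common pairing: they correlated over 0.1 in 6 of 18 pairs (-0.354 to 0.351). Of 12 libraries, 6 correlated best with their own number. These correlations cannot exclude that libraries of the same number were handled together. No group has more than 3 libraries, and single genes of this set had a median SE of 0.11 between lines.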
